A study of Homo sapiens and Mus musculus with 18 samples.

Results

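Human embryonic stem cells (ESCs) of one line, RUES2-GLR, were compared with the RA-gastruloids made from them, to measure the net change of each transcript over the whole differentiation and to find transcripts that left the ESC level by 24 h and were back by 120 h. The genes described are those with enough counts in the 2 primed RUES2-GLR ESC libraries and the 2 late (120 h) RA-gastruloid libraries by edgeR's filterByExpr, 15662 of 44910 genes in the human count table. They were tested inside one fit of 18300 genes over all 10 human libraries, and p-values were adjusted over those 18300. The 2 early (24 h) RA-gastruloid libraries of the same line supplied the intermediate stage, and the 2 primed H9 ESC libraries, from another human ESC line, are given beside some values as a second ESC level.

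RUES2-GLR is an established human ESC line that carries fluorescent reporters for germ layer genes (SOX2, TBXT and SOX17). The ESCs were kept undifferentiated as primed cells in StemFlex medium on Geltrex. RA-gastruloids are aggregates without extraembryonic tissue: ESCs moved to another medium were treated with the GSK3 inhibitor CHIR99021, which activates WNT signalling, then with CHIR99021 and retinoic acid (RA) together, and were aggregated with CHIR99021 and a ROCK inhibitor. Matrigel and a second dose of RA were added between the 24 h and 120 h samplings. The first step (ESC to 24 h) therefore holds the change of medium, the CHIR99021 and RA treatment and aggregation at once, which cannot be told apart. All gastruloid libraries share that treatment. Times count from aggregation, after the earlier treatment with CHIR99021 and RA, so the first step lasted longer than 24 h. Each group had 2 biological replicates. Gastruloid samples came from a shared experimental batch. Whether the ESCs shared it is not given in the sources used here. Stage and batch therefore cannot be told apart in the first step and the net change. The paper names 2 read lengths without saying which library had which. A difference in sequencing between stages therefore cannot be told apart in any comparison, the second step included. Replicates of one group came from one line, so p-values measure the spread between such cultures, not between lines.

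Primed ESCs correspond to the epiblast after implantation and hold their state through a network led by POU5F1, SOX2 and NANOG. WNT signalling takes such cells towards the primitive streak, where TBXT, MSGN1 and CDX genes are switched on and the HOX clusters begin to open from their 3' ends. In the elongating embryo the descendants become somites, which secrete RA, and neural tube, while CYP26 enzymes degrade RA at the ends of the axis.

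Total counts were 3681739 to 14196716 in the ESC libraries, 9499295 and 9984573 at 24 h and 8777081 to 19474515 at 120 h. The floor used below, 3 counts, amounts to 0.246 and 0.956 CPM in the ESC libraries, 0.288 and 0.303 at 24 h and 0.145 and 0.306 at 120 h, so a gene near 1 CPM was measured by few reads in ESC replicate 2. CPM are library-size-scaled counts with TMM factors. Replicates correlated across these genes at Pearson's r of 0.981 (ESC), 0.989 (24 h) and 0.990 (120 h), a description across genes, which are not independent. The SD of the log2 difference between replicates was 0.51, 0.42 and 0.38 in the same order. Chi-square per degree of freedom between replicates was 3.07, 1.54 and 14.03, so by that measure the 120 h pair differed most. The effect of this on the calls was not tested. The 120 h replicates differed with base composition. The median log2 ratio of replicate 1 over replicate 2 ran from -0.23 in the quintile of genes lowest in transcript GC to 0.36 in the highest quintile, against 0.22 to -0.11 for the ESC replicates and 0.03 to 0.00 at 24 h. The part of this in the results was not tested. In bulk libraries fewer cells of a type and less RNA per cell cannot be told apart.

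Of the 15662 genes, 6362 (40.6%) were called between ESCs and 120 h, where a call is an adjusted p under 0.05 (edgeR quasi-likelihood F-test, Benjamini-Hochberg) and more than a 2-fold change. Of these, 3024 (19.3%) were higher and 3338 (21.3%) lower at 120 h. The median gene moved by 0.15 on the log2 scale under TMM and by 0.02 under upper quartile scaling, and the share of calls that were higher, 47.5% here, was 41.6% under the latter. In the first step 1858 genes (11.9%) were called higher and 3017 (19.3%) lower at 24 h. In the second, 2068 (13.2%) were called higher and 1915 (12.2%) lower at 120 h.

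The steps placed the net changes in time. Of the genes higher at 120 h, 858 (28.4%) had their call in the first step alone, 931 (30.8%) in the second alone and 227 in both. Among the lower genes, 1457 (43.7%) were called in the first step alone, 663 (19.9%) in the second alone and 618 in both. A further 1220 net calls, 826 of them higher, were the sum of 2 steps neither of which was called. Partly reversed changes, in which the second step went back by a called amount but left a net call of the first step's direction, numbered 208. In 180 genes the second step carried the level past the ESC level to a net call of the opposite direction.

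**Figure D1:**
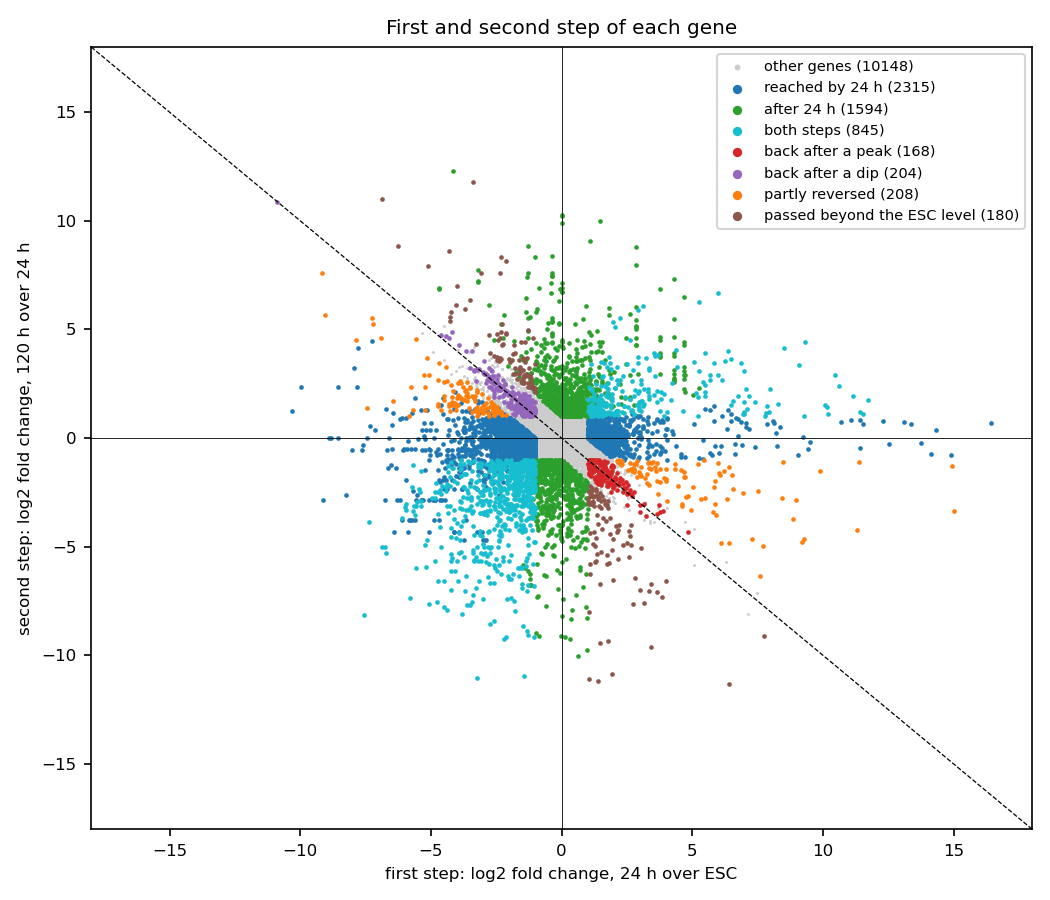
Each point is 1 of the 15662 genes: the horizontal axis is its log2 fold change from ESC to 24 h and the vertical axis its log2 fold change from 24 h to 120 h, coloured by timing. On the dashed line both steps cancel; the 168 genes back after a 24 h peak lie along it at the lower right and the 204 back after a dip at the upper left. The fitted value of a gene with no counts in a stage is not a bound.

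The 12 genes with the largest rises among those with more than 3 counts in an ESC library and at least 10 CPM at 120 h included IGF2, MSX1, MEIS2, FOXC1, GDF10, OLIG3, ZBTB16, PAX7, NR2F2, POU3F2 and ZIC1, with log2 fold changes of 7.13 to 9.18. IGF2, an imprinted growth factor of the embryo, had 2.21 and 3.50 CPM in the 2 ESC libraries, 21.5 and 22.1 at 24 h and 1484 and 1431 at 120 h (log2 fold change 9.18 ± 0.28, adjusted p = 3.43e-26; here and below ± is the SE of the log2 fold change, with n = 2 libraries a group). Its exons share 44.4% of their bases with other annotated genes, most of them on the same strand. All 6 libraries were in stage order with no overlap, and the larger part of the rise came after 24 h (6.06 of 9.18). MSX1, a homeobox gene of dorsal neural tube and mesenchyme, had 0.491 and 0.637 CPM in the 2 ESC libraries, 126 and 134 at 24 h and 326 and 279 at 120 h (log2 fold change 9.16 ± 0.53, adjusted p = 4.16e-24), so most of its rise was already present at 24 h. MEIS2, a HOX cofactor that RA induces, had 0.737 and 0.319 CPM in the 2 ESC libraries, 85.3 and 81.4 at 24 h and 267 and 266 at 120 h (log2 fold change 8.66 ± 0.42, adjusted p = 3.85e-25). FOXC1, a paraxial mesoderm transcription factor, was at 114 and 120.4 CPM at 24 h and 130.4 and 144 at 120 h, from 0.328 and 0.637 in ESCs (log2 fold change 8.42 ± 0.57, adjusted p = 7.98e-23). The second step of FOXC1 was not called (adjusted p = 0.0976).

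Other genes of this group rose only after 24 h. OLIG3, a bHLH factor of dorsal progenitors, had 0.409 and 1.27 CPM in the 2 ESC libraries, 0.0961 and 0 at 24 h and 213 and 187 at 120 h (log2 fold change 8.38 ± 0.51, adjusted p = 1.04e-22). Its first step, on 5 and 4 reads in the ESC libraries and 1 read over both at 24 h, was called lower (adjusted p = 0.0105), a ratio of 11.9 with a 95% counting interval of 1.65 to 522. NR2F2 (COUP-TFII), an orphan nuclear receptor of mesenchyme, had 1.64 and 0.637 CPM in the 2 ESC libraries, 0.769 and 0.606 at 24 h and 219.6 and 230.4 at 120 h. Its paralogue NR2F1 had 1 read over both ESC libraries and 219 and 193 CPM at 120 h, a ratio of 3233 with a 95% counting interval of 580.1 to 127731 (the interval covers counting error only).

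The 12 largest falls among genes with more than 3 counts left in a 120 h library were ESRG, CLDN6, POU5F1, FOXH1, B3GNT7, ZSCAN10, OTX2, CDH3, NPTX1, TNFRSF8, LARGE2 and CYP2S1, with log2 fold changes of -11.32 to -8.81. CLDN6, a tight junction claudin of pluripotent epithelium, had 2716 and 3170.4 CPM in the 2 ESC libraries, 279.5 and 272 at 24 h and 1.45 and 1.53 at 120 h (log2 fold change -10.95 ± 0.22, adjusted p = 1.28e-29). ESRG, a long noncoding RNA of primate pluripotent cells, had 369 and 339 CPM in the 2 ESC libraries, 49.9 and 56.0 at 24 h and 0.194 and 0 at 120 h (log2 fold change -11.32 ± 0.69, adjusted p = 1.07e-26). FOXH1, the SMAD partner that relays NODAL signals, still had 92.1 and 96.1 CPM at 24 h against 159.7 and 181 in ESCs, and 0.242 and 0 at 120 h (log2 fold change -9.95 ± 0.66, adjusted p = 1.31e-24). NPTX1, a secreted neuronal pentraxin, was down by 24 h: it had 187 and 206 CPM in the 2 ESC libraries, 0.288 and 0 at 24 h and 0.436 and 0.204 at 120 h (log2 fold change -9.05 ± 0.45, adjusted p = 8.51e-25). The first step thus took NPTX1 to its final level and left FOXH1 within 2-fold of where it began. FOXH1 shares 39.2% of its exonic bases with the antisense gene KIFC2, and counting without strand discards reads that fall on both.

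In 390 of the genes both ESC libraries held 3 counts or fewer, and in 420 both 120 h libraries did. Of the 8 of the former most abundant at 120 h, 5 lay in the HOXB cluster (HOXB9, HOXB-AS3, HOXB1, HOXB8 and HOXB3), and the others were TSHZ1, NR2F1 and NTRK2. HOXB9 had no read in either ESC library, 683 and 697 CPM at 24 h and 1149 and 1054 at 120 h, at least 1834-fold higher than a floor of 3 counts in each ESC library. NTRK2, the BDNF receptor, rose late, with 0.246 and 0.319 CPM in the 2 ESC libraries, 3.46 and 0.505 at 24 h and 110.4 and 132 at 120 h, a ratio of 450.4 with a 95% counting interval of 176 to 1654. Of the 8 most abundant transcripts lost, CDH1, SCNN1A, CLDN7, ESRP1 and AP1M2 are genes of epithelia, TDGF1 is a NODAL coreceptor, and FEZF1 and SEZ6 are expressed in the anterior nervous system. CDH1 (E-cadherin), which holds epithelial cells together, had 954 and 968 CPM in the 2 ESC libraries, 17.3 and 17.4 at 24 h and 0.0970 and 0.102 at 120 h, a ratio of 9709.6 with a 95% counting interval of 3322 to 47088 between ESCs and 120 h. TDGF1 had 419.7 and 414 CPM in the 2 ESC libraries, 2.02 and 2.42 at 24 h and 0 and 0 at 120 h, at least 1847-fold lower at 120 h. CDH1 and TDGF1 were both already under 20 CPM at 24 h, and neither group of replicates overlapped another.

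Gene lists for the processes and tissues of these cells give the setting of the single genes. Their counts stand beside 19.3% higher and 21.3% lower over all 15662 genes and a median log2 fold change of 0.15, and medians count genes with no reads in a stage at their bound. A gene with 3 counts or fewer in both ESC libraries could pass the filter only through the 120 h libraries, so its direction was set by the filter. These were 27 of the 27 HOX genes measured, 7 of 18 of the somite list, 5 of 25 of the neural tube list and 4 of 19 of the primitive streak list. Intermediate mesoderm and kidney had 4 of 9, cardiac 3 of 8, endothelial and blood 2 of 12 and the RA pathway 2 of 19. The anterior neural, neural crest, endoderm and notochord, amnion and trophoblast, extracellular matrix, and epithelial and mesenchymal lists held 1 each. In the same way 9 of 15 anterior neural, 8 of 36 pluripotency and 5 of 17 epithelial and mesenchymal genes passed only through the ESC libraries. So did 2 of 6 amnion and trophoblast, 1 of 8 cardiac and 1 of 18 WNT target and feedback genes.

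**Figure D2:**
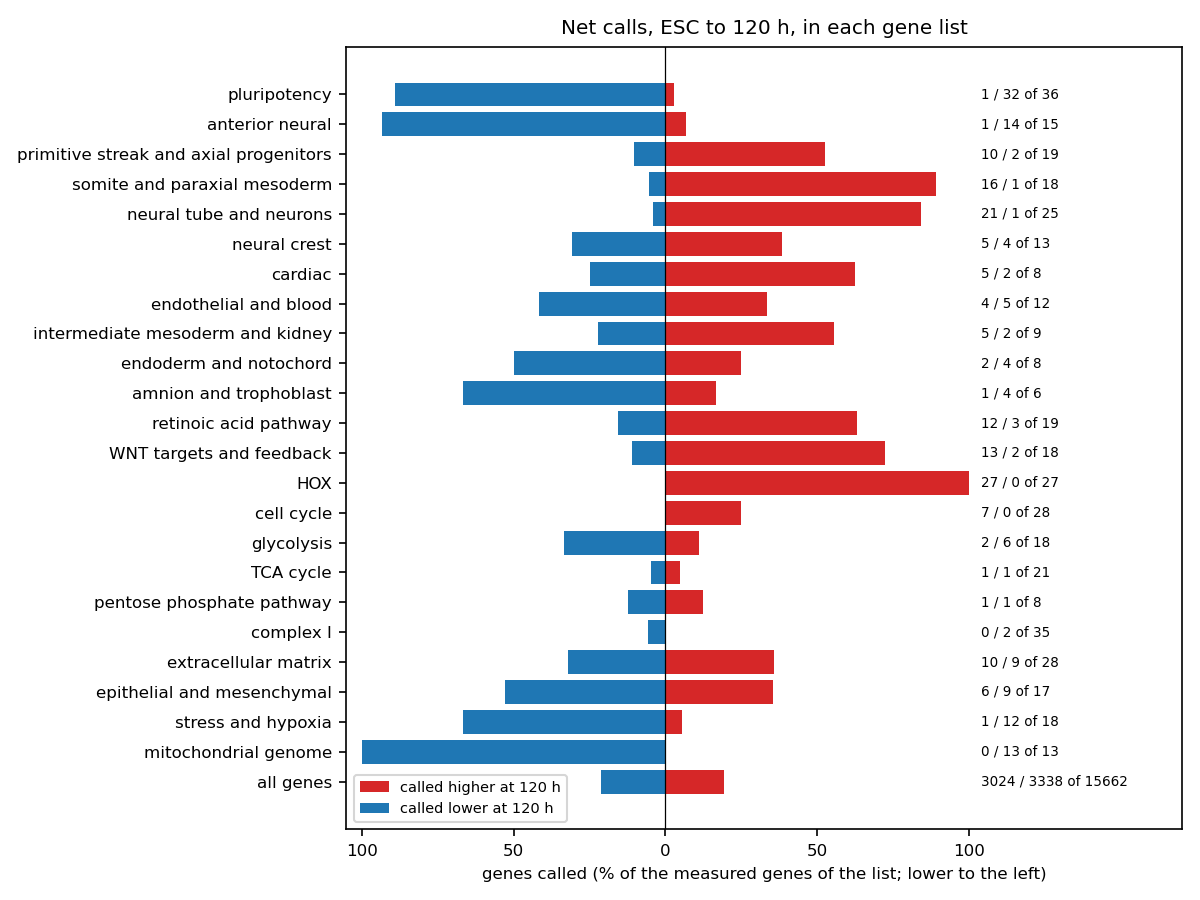
Share of the measured genes of each list that were called higher (right) or lower (left) at 120 h against ESCs, with the counts higher, lower and measured at the right edge. Mitochondrially encoded genes were called lower in 13 of 13, against 3338 of all 15662 genes. All 27 HOX genes passed the filter only through the 120 h libraries, so their count of 27 higher was set by the filter.

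Of 36 pluripotency genes measured, 32 fell, 1 rose and 3 were not called (median -4.70), and their summed level went from 13279.7 and 13091 CPM in the ESC libraries to 3035 and 3024 at 24 h and 1676 and 1676 at 120 h. PRDM14, a regulator of pluripotency, had 37.3 and 43.0 CPM in the 2 ESC libraries, 2.11 and 1.31 at 24 h and 0 and 0 at 120 h, at least 178-fold lower at 120 h. POU5F1 and NANOG left at different times. POU5F1 kept 257 and 242 CPM at 24 h of 604 and 623 in ESCs before falling to 0.388 and 0.612 (first step -1.30, second -9.05), whereas NANOG was at 0.384 and 0.101 CPM at 24 h from 29.2 and 29.6. The 1 gene that rose, LIN28B, which blocks let-7 maturation, was raised by 24 h, with 85.4 and 83.2 CPM in the 2 ESC libraries, 208 and 214 at 24 h and 167 and 214 at 120 h (log2 fold change 1.17 ± 0.12, adjusted p = 5.63e-10). SALL4, not called, had 179 and 148 CPM in the 2 ESC libraries, 290.2 and 274 at 24 h and 140.5 and 143 at 120 h (net log2 fold change -0.22, adjusted p = 0.0776).

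The promoter of NANOG (GRCh38.p14, chr12:7789152-7789451, plus strand, from RefSeq) is shown because it holds a match to the composite motif at which POU5F1 and SOX2 can bind side by side. Capitals mark 15 bases, on the minus strand and 121 to 107 bases before the start, that differ from the consensus of that motif in 2 letters.

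NANOG: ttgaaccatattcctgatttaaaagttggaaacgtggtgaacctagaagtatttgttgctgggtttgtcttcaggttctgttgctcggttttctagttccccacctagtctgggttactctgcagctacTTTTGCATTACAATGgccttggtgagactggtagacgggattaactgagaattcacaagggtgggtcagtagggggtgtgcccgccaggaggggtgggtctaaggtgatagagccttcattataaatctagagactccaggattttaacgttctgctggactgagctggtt

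A match of this kind, with up to 2 letters different, occurred in 0.0819% of the 10985 protein-coding genes with a promoter in the table and in 0.0744% of all 34943 promoters there. The former counts genes with a match in any promoter and the latter single promoters, so they are unlike measures. It was found in 3 of 2237 genes that fell (NANOG, PIPOX and SFRP2) and in 3 of 1977 that rose (FAM107B, HES6 and MEF2C). It was also found in 3 of 6771 genes not called (FAM227A, NADK and NRARP). Of all these, only NRARP matched with 0 letters different, and its net log2 fold change was -0.03. The allowance of 2 letters was set after motif counts had been seen. Matches from the 6 called genes, read in the direction of the motif, are set side by side, since they are found in genes that moved both ways.

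NANOG: CATTGTAATGCAAAA

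PIPOX: TATTGTCATGCAAAT

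SFRP2: CTTTTTTATGCAAAT

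FAM107B: CATTGTTAGTCAAAT

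HES6: CATTGAGATGCAAAT

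MEF2C: CCTCGTTATGCAAAT

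These genes are named for their matches. PIPOX, a peroxisomal oxidase, had 40.5 and 36.6 CPM in the 2 ESC libraries, 1.06 and 1.31 at 24 h and 0.776 and 0.510 at 120 h (log2 fold change -5.81 ± 0.32, adjusted p = 3.45e-20). SFRP2, a secreted WNT antagonist, had 2051 and 2361 CPM in the 2 ESC libraries, 98.4 and 97.1 at 24 h and 350.1 and 306 at 120 h (log2 fold change -2.75 ± 0.10, adjusted p = 5.42e-20), a fall at 24 h that was partly reversed. HES6 had 15.7 and 18.2 CPM in the 2 ESC libraries, 35.6 and 32.2 at 24 h and 40.2 and 29.0 at 120 h and so moved the other way (log2 fold change 1.09 ± 0.18, adjusted p = 2.57e-06).

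Anterior neural genes also fell: 14 of 15 measured were lower and 1, FEZF2, was higher (median -6.37). Their summed level in the RUES2-GLR ESCs was 565 and 524 CPM, against 78.2 and 78.0 in the primed H9 ESCs, and 5.43 and 5.81 at 120 h. FEZF1, a forebrain repressor, had 101 and 94.6 CPM in the 2 ESC libraries and 0.0485 and 0 at 120 h, and 0.978 and 1.31 CPM in H9 ESCs. OTX2, a factor of both epiblast and forebrain, had 162 and 146 CPM in the 2 ESC libraries, 2.88 and 2.02 at 24 h and 0.291 and 0.204 at 120 h (log2 fold change -9.16 ± 0.49, adjusted p = 5.31e-25), and 43.8 and 40.4 CPM in H9 ESCs. The RUES2-GLR ESCs thus stood above the H9 ESCs in both. With primed H9 ESCs as the reference, 8 of the 15 were called lower. Among 22 genes listed, 15 had 3 counts or fewer in both 120 h libraries, including SIX3, SIX6 and EN1.

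Genes of epithelia and mesenchyme moved apart. Of 17 measured, 9 were lower, all from the epithelial side (CDH1, CDH3, EPCAM, CLDN6, CLDN7, ESRP1, ESRP2, GRHL2 and RAB25), and 6 were higher, all mesenchymal (VIM, ZEB1, ZEB2, TWIST1, SNAI2 and CDH11). ZEB1, a repressor of CDH1, had 2.54 and 0.637 CPM in the 2 ESC libraries, 28.4 and 33.7 at 24 h and 45.8 and 57.6 at 120 h (log2 fold change 4.60 ± 0.31, adjusted p = 1.16e-16), and was at its 120 h level within 2-fold by 24 h. TWIST1 followed later, with 0.164 and 0 CPM in the 2 ESC libraries, 2.79 and 3.13 at 24 h and 30.1 and 26.9 at 120 h. CDH2 (N-cadherin) had 184 and 177 CPM in the 2 ESC libraries, 357 and 349.6 at 24 h and 342 and 354 at 120 h, a net log2 fold change of 0.95 that did not reach 2-fold.

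Among 19 measured genes of primitive streak and axial progenitors, 10 were higher at 120 h and 2 lower. In the first step 17 of the 19 rose, and in the second 16 fell. The summed level of the 28 genes of the list was 385 and 431 CPM in ESCs, 6466 and 6596 at 24 h and 596 and 465 at 120 h. Primed H9 ESCs had 125 and 138 CPM. CDX2, a homeobox factor of the posterior axis, had no read in ESCs, 254 and 261 CPM at 24 h and 24.8 and 24.6 at 120 h. It was at least 429-fold higher at 24 h than the floor and at least 41.1-fold higher at 120 h. WNT3A, a ligand that keeps axial progenitors, had 0.164 and 0.637 CPM in the 2 ESC libraries, 145 and 139.8 at 24 h and 93.6 and 69.4 at 120 h. MSGN1 and TBXT had too few counts in ESCs and at 120 h to pass the filter. MSGN1, the switch to presomitic mesoderm, had 0 reads in ESCs, 271 and 282 CPM at 24 h and 0.533 and 0.510 at 120 h, and TBXT had 124 and 128 CPM at 24 h and 1.75 and 0.510 at 120 h. Of the 28 genes listed, 5 had 3 counts or fewer in both 120 h libraries (EOMES, GSC, MESP2, CDX4, RIPPLY2).

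The 27 HOX genes measured all had 3 counts or fewer in both ESC libraries and passed the filter through the 120 h libraries, so that 27 of 27 were higher at 120 h is a result of the filter (median 6.20, with 25 of them at 0 reads in ESCs). All 27 were already called higher in the first step. The second step raised 14 of them further and lowered 1. HOXB1, the most 3' gene of its cluster, went from 238 and 246 CPM at 24 h to 152 and 130.3 at 120 h (-0.77, adjusted p = 6.56e-06), while HOXB8 went from 82.5 and 85.2 to 137 and 127 (0.66, adjusted p = 1.48e-05). Neither of these second steps passed 2-fold. HOXD1, the 3' gene of another cluster, was the gene lowered, from 19.4 and 22.7 to 11.4 and 7.24 CPM (-1.12 ± 0.19, adjusted p = 1.33e-05), and 60.1% of its exonic bases lie under an antisense gene. Of the 39 HOX genes listed, 10 had 3 counts or fewer in both 120 h libraries: HOXA11, HOXA13, HOXB13, HOXC11, HOXC12, HOXC13 and HOXD10 to HOXD13.

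Somite and paraxial mesoderm genes were higher in 16 of 18 measured, with 9 called higher in the first step and 14 in the second. Their summed level was 18.8 and 21.7 CPM in ESCs, 240.3 and 241 at 24 h and 1059.8 and 1017 at 120 h. MEOX1, which patterns somites, had 1 read in ESCs and 92.7 and 72.0 CPM at 120 h, a ratio of 1320.4 with a 95% counting interval of 237 to 52172. PAX9 was the 1 gene that fell, with 1.31 and 2.23 CPM in the 2 ESC libraries, 1.06 and 0.606 at 24 h and 0.291 and 0.204 at 120 h. NKX3-2, a sclerotome factor, had 1.39 and 1.59 CPM in the 2 ESC libraries, 0.865 and 1.72 at 24 h and 2.67 and 2.14 at 120 h and was not called (adjusted p = 0.0936).

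Neural tube and neuronal genes were higher in 21 of 25 and lower in 1, SOX21; 7 were called higher and 8 lower in the first step, 20 higher and 1 lower in the second. Summed, they stayed at 835 and 811 CPM in ESCs and 807 and 813 at 24 h before 2066 and 1838 at 120 h. NEUROG2, which starts neurogenesis, had no read in ESCs and 27.3 and 22.7 CPM at 120 h, at least 41.7-fold higher. PAX6 dipped from 5.16 and 4.78 CPM in ESCs to 0.192 and 0.303 at 24 h before 102 and 98.7 at 120 h. SOX2 fell from 1295 and 1275 CPM to 90.4 and 94.97 at 24 h and recovered to 325 and 318, while primed H9 ESCs had 328 and 365. OLIG2, NKX6-1, NKX6-2 and NKX2-2, which are ventral factors, and the dorsal factor ATOH1 had 3 counts or fewer in both 120 h libraries.

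Markers of other lineages were measured beside these. Neural crest genes were higher in 5 of 13 and lower in 4, and SNAI2 had 0.573 and 0.319 CPM in the 2 ESC libraries, 183 and 181 at 24 h and 27.2 and 25.9 at 120 h, partly reversed after 24 h. In intermediate mesoderm and kidney 5 of 9 were higher and 2 lower, but 4 of the 9 passed the filter only through the 120 h libraries. Of 12 endothelial and blood genes 4 were higher and 5 lower, the latter including the receptor TEK at 33.3 and 35.0 CPM in the 2 ESC libraries, 8.65 and 9.08 at 24 h and 7.95 and 6.62 at 120 h. Of 23 cardiac genes listed only 8 were measured, 5 higher and 2 lower. Of the 8, 3 passed the filter only through the 120 h libraries and 1 only through the ESC libraries. Of the 23, 15 had 3 counts or fewer in both 120 h libraries, among them TNNT2, MYH6, MYL7, NKX2-5, TBX5, HAND2 and GATA4. TTN rose to 16.6 and 21.6 CPM from 8.19 and 8.60 and ACTC1 to 16.8 and 13.0 from 6.39 and 8.60. Of the endoderm and notochord genes 4 of 8 were lower and 2 higher, and FOXA2 and AFP had 3 counts or fewer at 120 h. FOXA3, an endoderm factor, had 19.7 and 20.4 CPM in the 2 ESC libraries, 19.8 and 19.9 at 24 h and 0.776 and 0.815 at 120 h (log2 fold change -4.64 ± 0.30, adjusted p = 2.85e-17). Amnion and trophoblast genes were lower in 4 of 6 and higher in 1, GATA3. GATA3 passed the filter only through the 120 h libraries, and KRT7 and GABRP only through the ESC libraries.

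**Figure D3:**
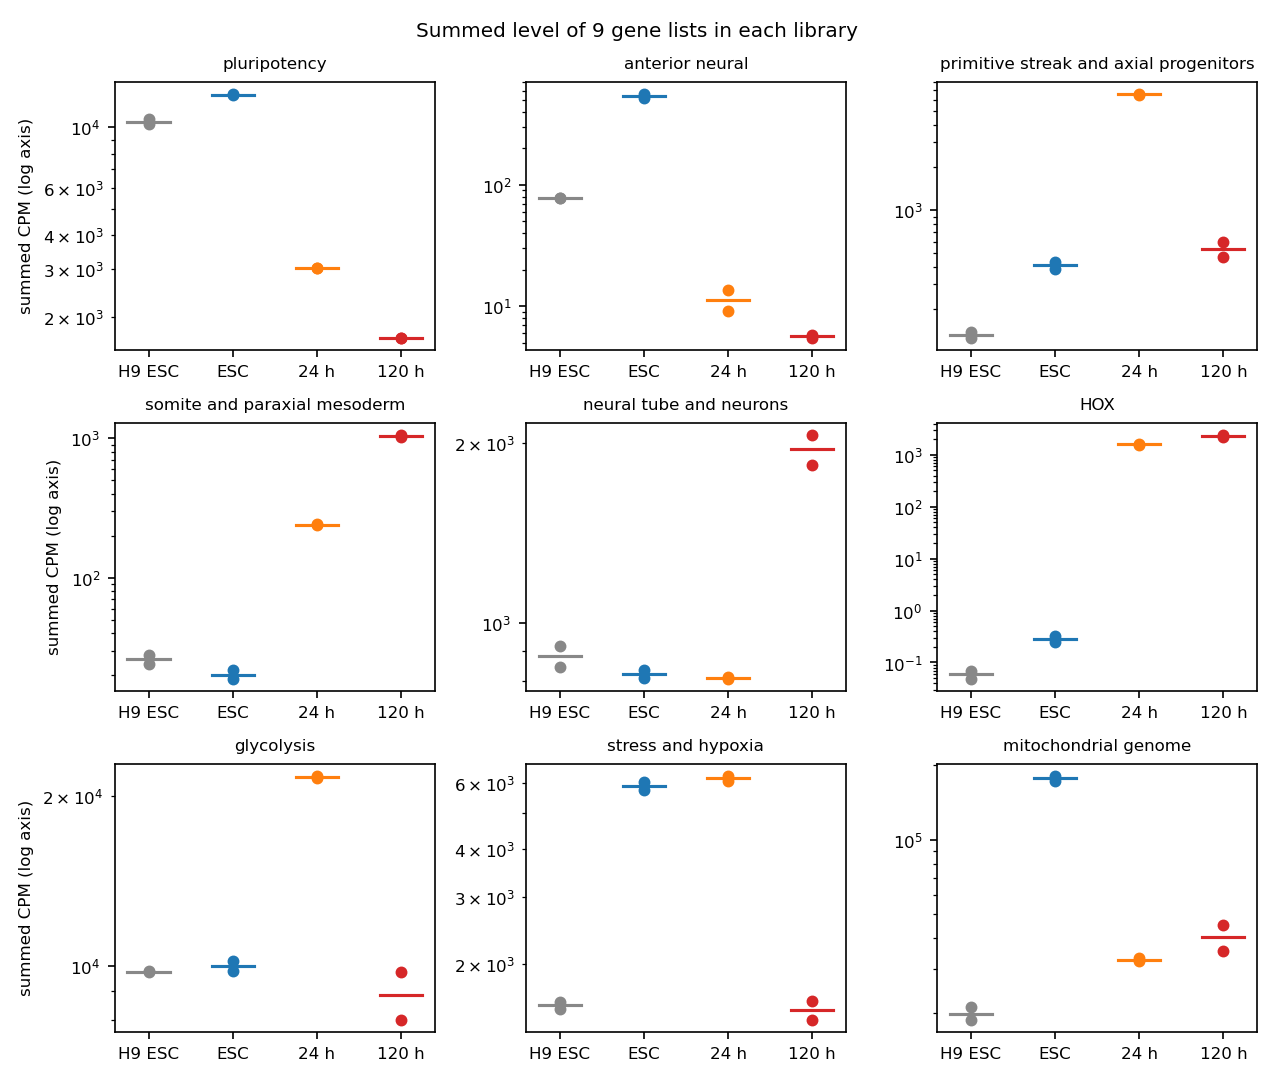
Summed CPM of the fitted genes of 9 lists in each library (log axis; points are libraries, lines group means), for primed H9 ESCs, RUES2-GLR ESCs, 24 h and 120 h RA-gastruloids. Streak and glycolysis genes stood highest at 24 h and somite and neural genes at 120 h. The anterior neural, streak, stress and mitochondrial lists, and to a smaller degree pluripotency, stood higher in the RUES2-GLR than in the H9 ESCs. HOX genes had almost no reads in either.

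RA is made by ALDH1A enzymes, is carried inside the cell by proteins such as CRABP2, is degraded by CYP26 enzymes, and acts through RAR and RXR receptors on DR5 and DR2 elements, direct repeats of a 6-base site 5 or 2 bases apart. Of 19 measured genes of the pathway, 12 were higher at 120 h, 3 lower and 4 not called. Among receptors, RARB, itself a classical RA target, had 0.737 and 0.956 CPM in the 2 ESC libraries, 2.40 and 2.52 at 24 h and 26.4 and 27.4 at 120 h (log2 fold change 5.08 ± 0.41, adjusted p = 2.69e-16). RARA had 10.8 and 11.8 CPM in the 2 ESC libraries and 56.6 and 42.0 at 120 h (log2 fold change 2.16 ± 0.18, adjusted p = 2.87e-12), whereas RARG peaked, with 44.1 and 44.9 CPM in the 2 ESC libraries, 128 and 122 at 24 h and 37.1 and 28.6 at 120 h. ALDH1A2, the RA-making enzyme of somites, had 4.42 and 3.82 CPM in the 2 ESC libraries, 35.9 and 35.3 at 24 h and 116 and 118 at 120 h (log2 fold change 4.77 ± 0.20, adjusted p = 1.07e-20). The 3 degrading enzymes were called in both directions. CYP26A1 had 215 and 262 CPM in the 2 ESC libraries, 12.6 and 11.6 at 24 h and 41.9 and 24.7 at 120 h (log2 fold change -2.80 ± 0.15, adjusted p = 3.14e-16), while CYP26C1 had 11.8 and 12.4 CPM in the 2 ESC libraries, 1.15 and 1.01 at 24 h and 1.02 and 0.917 at 120 h (log2 fold change -3.60 ± 0.35, adjusted p = 1.41e-11), and CYP26B1 had 0.491 and 0.637 CPM in the 2 ESC libraries, 20.7 and 19.4 at 24 h and 11.6 and 8.87 at 120 h (log2 fold change 4.30 ± 0.54, adjusted p = 1.34e-11). Primed H9 ESCs had 5.73 and 5.88 CPM of CYP26A1, and against them its log2 fold change at 120 h was 2.55, the opposite direction. Of the exonic bases of CYP26A1, 25.3% are shared with another gene on the same strand. CRABP1 fell (log2 fold change -1.87 ± 0.13, adjusted p = 4.47e-14), with 89.8 and 93.4 CPM in the 2 ESC libraries, 18.7 and 20.3 at 24 h and 27.3 and 21.9 at 120 h, though 45.9% of its exonic bases lie under an antisense gene.

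**Figure D4:**
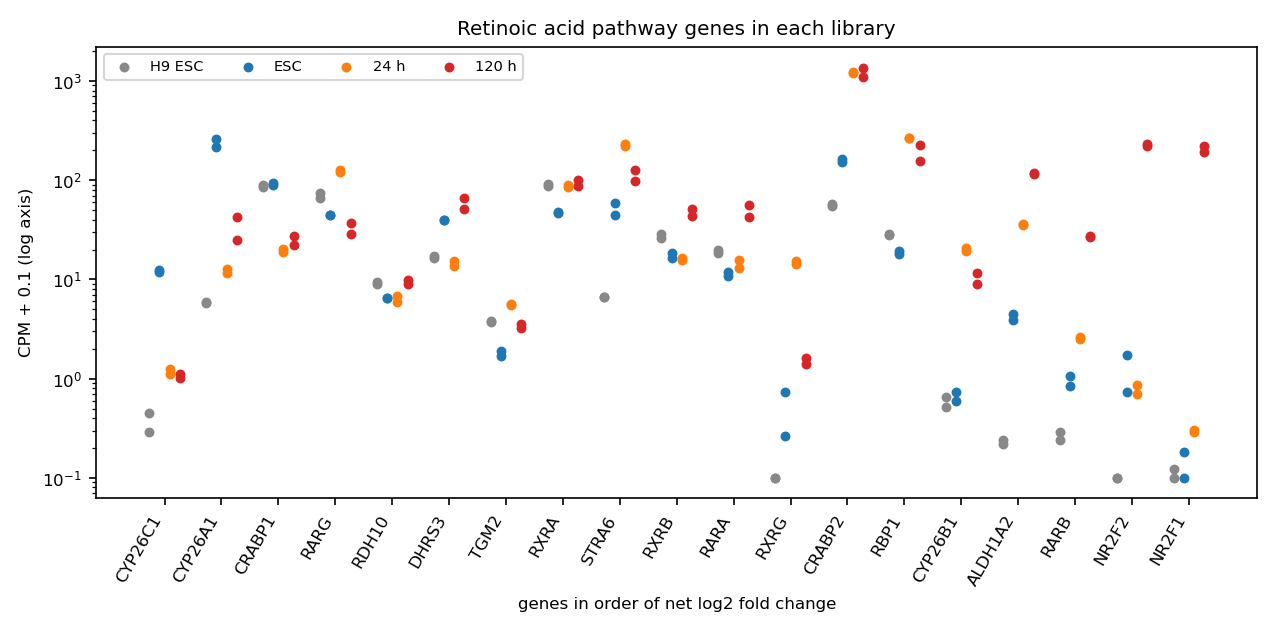
CPM plus 0.1 of the 19 measured RA pathway genes in each library (log axis), ordered by net log2 fold change. CYP26A1 stood highest in the RUES2-GLR ESCs at 215 and 262 CPM, and NR2F1, NR2F2 and RARB stood highest at 120 h.

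The promoters of RARB and CYP26A1 are shown because both hold a DR5 element yet the genes moved in opposite directions. Both are from RefSeq on GRCh38.p14. That of RARB is chr3:25428013-25428312, plus strand, with the 17-base element 53 to 37 bases before the start. That of CYP26A1 is chr10:93073643-93073942, plus strand, with the element on the minus strand 90 to 74 bases before the start. Capitals mark the element.

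RARB: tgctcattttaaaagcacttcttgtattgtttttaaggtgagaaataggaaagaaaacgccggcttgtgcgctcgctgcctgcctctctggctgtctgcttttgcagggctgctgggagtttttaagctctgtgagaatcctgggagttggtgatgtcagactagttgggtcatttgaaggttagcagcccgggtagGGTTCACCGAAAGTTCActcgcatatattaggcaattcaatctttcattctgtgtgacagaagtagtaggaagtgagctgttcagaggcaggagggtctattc

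CYP26A1: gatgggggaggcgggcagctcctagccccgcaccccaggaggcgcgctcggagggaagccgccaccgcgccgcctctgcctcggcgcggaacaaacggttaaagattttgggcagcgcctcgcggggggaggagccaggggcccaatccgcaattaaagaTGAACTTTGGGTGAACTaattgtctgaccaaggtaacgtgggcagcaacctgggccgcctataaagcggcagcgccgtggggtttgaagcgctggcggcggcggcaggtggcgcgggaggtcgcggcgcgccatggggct

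A DR5 element, searched on either strand with repeated sites NGGTCA or NGTTCA in which N is A or G, was found in 10 of the 10985 protein-coding genes with a promoter (0.091%), 2 of 1977 that rose and 1 of 2237 that fell, against 0.0887% of all promoters in the table. A DR2 element was found in 4 genes. TCF/LEF sites (CTTTGNN in which each N is A or T, either strand) were in 15.2% of genes that rose, 12.4% of all 10985 and 13.8% of all promoters in the table. For every motif a gene counted where any of its promoters matched, while shares of all promoters count single promoters. These are unlike measures. The TCF/LEF share among genes that fell is void, because only 75.5% of them had a promoter there. The same limit holds for the DR5 and composite motif counts among genes that fell.

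WNT targets and feedback genes were higher in 13 of 18 and lower in 2 (median 1.59). NKD1, an inhibitor that WNT induces, had 5.98 and 5.73 CPM in the 2 ESC libraries, 94.8 and 97.0 at 24 h and 185 and 174 at 120 h (log2 fold change 4.92 ± 0.17, adjusted p = 2.02e-22). LEF1, the transcriptional partner of beta-catenin, had 4.18 and 1.27 CPM in the 2 ESC libraries, 221 and 227 at 24 h and 96.1 and 108 at 120 h (log2 fold change 4.86 ± 0.24, adjusted p = 6.95e-20), a rise partly reversed after 24 h. BAMBI, a decoy receptor of TGF-beta signals, fell in both steps, with 25.7 and 27.7 CPM in the 2 ESC libraries, 9.80 and 9.39 at 24 h and 3.78 and 3.36 at 120 h (log2 fold change -2.86 ± 0.18, adjusted p = 1.91e-15). Cell cycle genes were higher in 7 of 28 and lower in none (median 0.60). The replication helicase subunit MCM2 had 94.7 and 112 CPM in the 2 ESC libraries, 253 and 263 at 24 h and 383 and 276 at 120 h (log2 fold change 1.69 ± 0.12, adjusted p = 4.31e-13). With primed H9 ESCs as the reference, 3 of the 28 were higher and 4 lower.

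Of 28 extracellular matrix genes, 10 were higher and 9 lower. COL2A1, the collagen of cartilage and notochord, had 72.7 and 81.2 CPM in the 2 ESC libraries, 117 and 113 at 24 h and 1528 and 1169 at 120 h (log2 fold change 4.15 ± 0.12, adjusted p = 3.14e-22). COL3A1, a fibrillar collagen of mesenchyme, had 0.246 and 0.319 CPM in the 2 ESC libraries, 33.7 and 39.2 at 24 h and 96.1 and 88.8 at 120 h (log2 fold change 8.43 ± 0.66, adjusted p = 2.53e-22). COL1A1 went the other way, with 362 and 416 CPM in the 2 ESC libraries, 484 and 442 at 24 h and 28.7 and 22.2 at 120 h (log2 fold change -3.91 ± 0.12, adjusted p = 4.36e-22), a fall that came after 24 h. FN1 (fibronectin) was raised by 24 h, with 107 and 105 CPM in the 2 ESC libraries, 795 and 840.4 at 24 h and 909 and 799.8 at 120 h (log2 fold change 3.01 ± 0.11, adjusted p = 5.19e-20).

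Energy metabolism was measured through 5 lists. Of the 13 protein-coding genes of the mitochondrial genome, 13 were lower at 120 h (median -2.08), and all 13 fell in the first step and none was called in the second. MT-CO1, a subunit of cytochrome oxidase, had 51553 and 54394 CPM in the 2 ESC libraries, 9177 and 9306 at 24 h and 9908 and 12330.4 at 120 h (log2 fold change -2.25 ± 0.10, adjusted p = 1.05e-17). The mitochondrial genome took 21.4% and 22.4% of counts in the RUES2-GLR ESC libraries, 5.17% and 5.24% at 24 h, 4.90% and 6.71% at 120 h, and 3.01% and 2.68% in primed H9 ESCs. Against primed H9 ESCs none of the 13 was lower at 120 h and 7 were higher, so the direction differed between the ESCs of the 2 lines. Of nuclear genes for complex I, 0 of 35 were higher and 2 lower (NDUFA3 and NDUFA9). In the TCA cycle 1 of 21 rose (IDH2) and 1 fell (SDHD), and in the pentose phosphate pathway 1 of 8 rose (RPIA) and 1 fell (TKT). Removing the mitochondrial genome from the fit left 2703 genes higher and 3537 lower. Keeping it but fitting only the 6 RUES2-GLR-derived libraries gave similar counts, 2702 and 3551.

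Of 18 glycolysis genes measured, 8 rose and none fell in the first step, 13 fell and 1 rose in the second, and 2 were higher and 6 lower over both. Their summed level was 9780.5 and 10181 CPM in ESCs, 21548 and 21747 at 24 h and 9726 and 7995 at 120 h, with 9779 and 9725 in primed H9 ESCs. ENO1, PKM and ALDOA were back at the ESC level by the rule below. ENO1 had 2313 and 2484 CPM in the 2 ESC libraries, 5832 and 5726 at 24 h and 2411 and 1970.4 at 120 h (net log2 fold change -0.13 after 1.27 and -1.40). ENO2 passed below where it began, with 112 and 106 CPM in the 2 ESC libraries, 242 and 251 at 24 h and 33.8 and 26.5 at 120 h (log2 fold change -1.84 ± 0.12, adjusted p = 2.27e-14). ENO3, the muscle enolase, rose late instead, with 10.5 and 12.4 CPM in the 2 ESC libraries, 14.6 and 14.9 at 24 h and 84.7 and 66.2 at 120 h (log2 fold change 2.78 ± 0.17, adjusted p = 9.07e-16). GAPDH, not called, had 2269 and 2456 CPM in the 2 ESC libraries, 3671 and 3972 at 24 h and 2677 and 2126 at 120 h, and its reads can be shared with many near-identical pseudogenes.

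Stress and hypoxia genes were lower in 12 of 18 and higher in 1. SLC2A1, the main glucose transporter, had 2628 and 2979.9 CPM in the 2 ESC libraries, 3381 and 3467 at 24 h and 307 and 246 at 120 h (log2 fold change -3.34 ± 0.11, adjusted p = 1.85e-21). ADM, a peptide that hypoxia induces, had 279 and 297 CPM in the 2 ESC libraries, 114 and 112 at 24 h and 2.38 and 2.04 at 120 h (log2 fold change -6.99 ± 0.19, adjusted p = 1.41e-25). CHAC1, a target of the unfolded protein response, had 30.1 and 29.3 CPM in the 2 ESC libraries, 4.52 and 5.55 at 24 h and 1.65 and 1.43 at 120 h (log2 fold change -4.24 ± 0.24, adjusted p = 8.45e-18). HSPA1B, which rose, has a near-identical copy in HSPA1A and is uncertain. Summed, the list was at 5746 and 6028 CPM in the RUES2-GLR ESCs and 1518 and 1583 in primed H9 ESCs, and with the latter as the reference 5 were lower and 3 higher.

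A gene was counted as back at the ESC level where both steps were called in opposite directions and the 95% interval of the net log2 fold change lay within 2-fold either way. Of 439 genes with a called 24 h peak and 587 with a called dip, 168 and 204 met this. Both counts come from the steps the rule uses and are descriptions. CXCR4 was the peak gene nearest to the limit from inside (the interval ended at 0.992) and ECM1 the nearest outside (1.002). For dips these were TIGD4 (0.998) and TTBK1 (1.005). The net change was itself under an adjusted p of 0.05 in 48 of the 168 and 52 of the 204, so a return means a level within 2-fold and not the same level. The median first step was 1.54 in size on the log2 scale for peaks and 1.60 for dips. Without ESC replicate 1, the deeper ESC library, 99 peaks and 140 dips were counted as back.

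The 10 largest returned peaks with at least 10 CPM were NDRG1, NKX1-2, PPP1R3C, CXCR4, TENM1, CDKN1A, PTH1R, PFKFB4, SNAI1 and CLSTN2. NDRG1, which hypoxia induces, had 7.37 and 5.73 CPM in the 2 ESC libraries, 194 and 198 at 24 h and 9.89 and 9.89 at 120 h, a first step of 4.82 ± 0.17 and a net change of 0.51 ± 0.18 (adjusted p = 0.0156). The 24 h libraries stood far above the other 4, and the 120 h libraries somewhat above those of ESCs. PFKFB4, which makes the activator of phosphofructokinase, had 36.6 and 32.8 CPM in the 2 ESC libraries, 285 and 281 at 24 h and 36.3 and 30.0 at 120 h (net -0.08 ± 0.13, adjusted p = 0.636), and the ESC and 120 h values overlapped. PPP1R3C, a subunit that targets a phosphatase to glycogen, had 4.26 and 3.82 CPM in the 2 ESC libraries, 54.8 and 58.9 at 24 h and 5.38 and 5.50 at 120 h (net 0.39). Named after their values were seen, PFKFB3, DDIT4, PGM1 and GBE1 had the same form. PFKFB3 had 49.1 and 50.02 CPM in the 2 ESC libraries, 287 and 287 at 24 h and 52.1 and 47.0 at 120 h. DDIT4, a stress-induced inhibitor of mTORC1, had 329 and 349.8 CPM in the 2 ESC libraries, 1943 and 1916 at 24 h and 257 and 199 at 120 h. PGM1 and GBE1, enzymes of glycogen metabolism, had 438 and 437 and 128 and 122 CPM at 24 h, from 74.9 and 81.6 and 24.1 and 24.2 in ESCs, and 77.6 and 67.2 and 23.4 and 27.1 at 120 h.

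CXCR4, a chemokine receptor of migrating mesendoderm, had 16.9 and 24.2 CPM in the 2 ESC libraries, 253 and 259 at 24 h and 32.6 and 28.4 at 120 h (net 0.68 ± 0.15, adjusted p = 0.000291). It ended slightly above its ESC level without overlap, and primed H9 ESCs had 0.699 and 1.02 CPM. SNAI1, which drives the loss of epithelial character in gastrulation, had 7.94 and 6.05 CPM in the 2 ESC libraries, 58.4 and 60.9 at 24 h and 6.25 and 4.38 at 120 h (net -0.43, adjusted p = 0.0868), in contrast to SNAI2, which was only partly reversed. CDKN1A, the p21 inhibitor of cyclin-dependent kinases, had 10.9 and 14.7 CPM in the 2 ESC libraries, 109 and 114 at 24 h and 8.82 and 9.89 at 120 h (net -0.37, adjusted p = 0.06). NKX1-2, a homeobox gene of neuromesodermal progenitors, had 4.99 and 4.78 CPM in the 2 ESC libraries, 75.3 and 69.3 at 24 h and 7.03 and 7.13 at 120 h (net 0.52), with 37.7% of its exonic bases under an antisense gene. TENM1, PTH1R and CLSTN2 were lower, with 24 h means of 13.2 to 27.4 CPM. Of the RA pathway, RARG was also a returned peak.

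**Figure D5:**
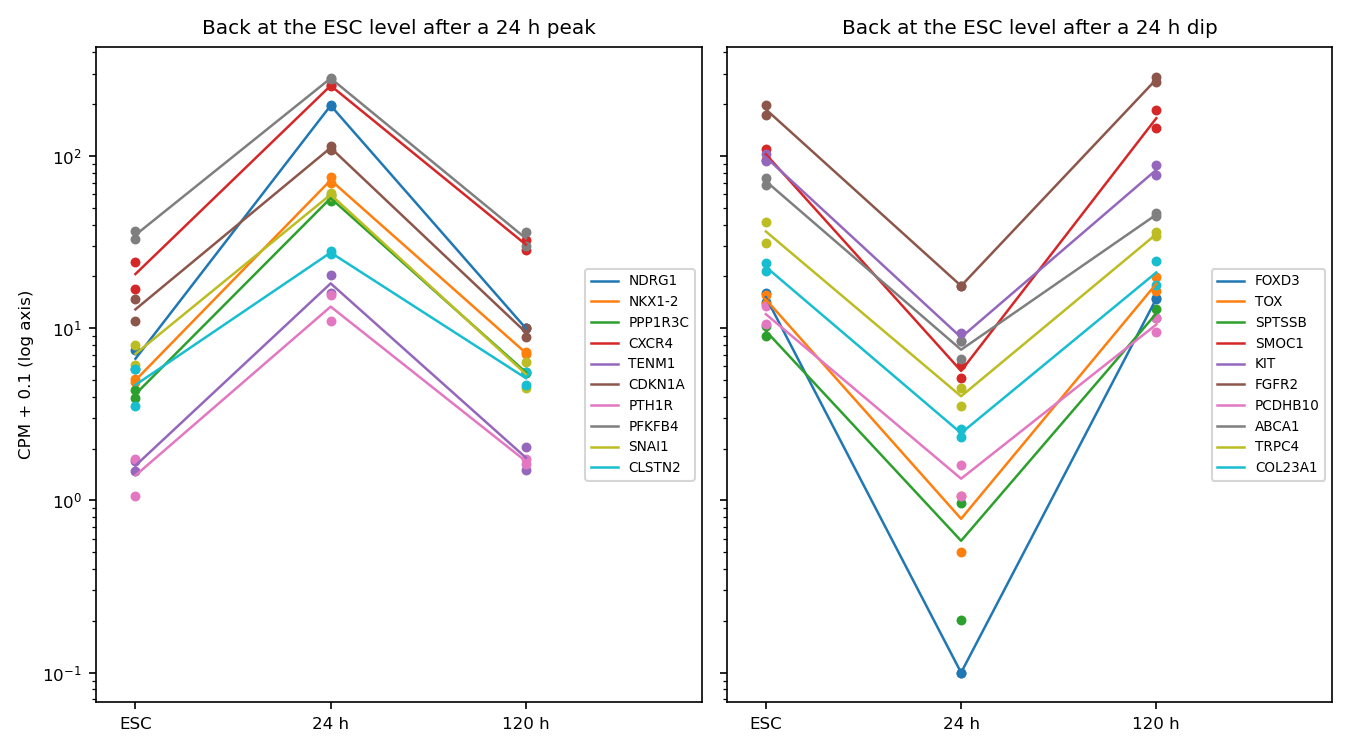
CPM plus 0.1 (log axis) at each stage for the 10 largest returned peaks (left) and the 10 largest returned dips (right); points are libraries and lines join group means. NDRG1 had 194 and 198 CPM at 24 h between single-digit levels at both ends, and FOXD3 had no read at 24 h.

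FOXD3 led the returned dips. This forkhead repressor of primed pluripotency and of neural crest had 14.2 and 15.9 CPM in the 2 ESC libraries, 0 and 0 at 24 h and 14.8 and 14.7 at 120 h. At 24 h it was at least 50.9-fold lower than in ESCs and at least 49.9-fold lower than at 120 h, with a net change of 0.00 ± 0.22. The antisense gene FOXD3-AS1, with which it shares 24.1% of its exonic bases, was only partly reversed, with 33.3 and 27.4 CPM in the 2 ESC libraries, 0.192 and 0.202 at 24 h and 9.79 and 9.07 at 120 h. KIT, the receptor of stem cell factor, had 103 and 93.7 CPM in the 2 ESC libraries, 9.22 and 8.28 at 24 h and 77.9 and 88.3 at 120 h (net -0.26 ± 0.13, adjusted p = 0.0776). FGFR2, an FGF receptor of epithelia and neural progenitors, had 199 and 174 CPM in the 2 ESC libraries, 17.6 and 17.5 at 24 h and 288 and 269 at 120 h (net 0.57 ± 0.11, adjusted p = 2.04e-05). FGFR2 thus ended above its ESC level by less than 2-fold, while the net change of KIT did not pass the test. Against primed H9 ESCs the log2 fold change of KIT at 120 h was 1.43, and that of PFKFB4 among the peaks 1.25, so a return to the level of RUES2-GLR ESCs was not one to the level of both lines.

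SMOC1, a secreted modulator of BMP signals, had 94.4 and 110.2 CPM in the 2 ESC libraries, 6.05 and 5.05 at 24 h and 186 and 145 at 120 h (net 0.72, adjusted p = 1.34e-05), and only 2.87 and 2.43 CPM in primed H9 ESCs. ABCA1, the cholesterol exporter, had 74.4 and 68.2 CPM in the 2 ESC libraries, 6.53 and 8.28 at 24 h and 44.5 and 46.7 at 120 h (net -0.66, adjusted p = 4.26e-05). TRPC4, a cation channel, had 41.5 and 31.2 CPM in the 2 ESC libraries, 4.42 and 3.43 at 24 h and 34.2 and 36.0 at 120 h (net -0.10, adjusted p = 0.561). Against primed H9 ESCs ABCA1 and TRPC4 were higher at 120 h, by 1.10 and 1.09 on the log2 scale. TOX, SPTSSB, PCDHB10 and COL23A1 completed the 10 largest, with ESC means of 9.54 to 22.6 CPM and net changes of -0.24 to 0.32. Of the lists, ZIC2 had 306 and 298 CPM in the 2 ESC libraries, 113 and 113 at 24 h and 243 and 218 at 120 h, and DHRS3, which converts retinaldehyde back to retinol, had 39.6 and 39.5 CPM in the 2 ESC libraries, 15.4 and 13.4 at 24 h and 65.6 and 50.8 at 120 h (net 0.57).

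The same transient steps ended elsewhere in other genes. Of those partly reversed, RSPO3, which amplifies WNT signals, had 0.328 and 0.637 CPM in the 2 ESC libraries, 229 and 239 at 24 h and 8.05 and 8.87 at 120 h (log2 fold change 4.39 ± 0.55, adjusted p = 2.3e-12), and CDX1, a relative of CDX2, had 0 and 0 CPM in the 2 ESC libraries, 249.2 and 244 at 24 h and 111 and 86.9 at 120 h, at least 165-fold higher at 120 h than the ESC floor. Among dips, SHISA2, an inhibitor of FGF and WNT receptors, had 191 and 189 CPM in the 2 ESC libraries, 1.15 and 1.41 at 24 h and 49.1 and 49.8 at 120 h (log2 fold change -1.94 ± 0.12, adjusted p = 4.08e-15). VWF, a blood glycoprotein of endothelium, had 135 and 140.2 CPM in the 2 ESC libraries, 0.577 and 1.01 at 24 h and 2.52 and 1.22 at 120 h, and 0.978 and 1.57 CPM in primed H9 ESCs. WNT8A, FGF4, LRP2 and MEGF10 passed beyond the ESC level and were chosen after their values were seen. WNT8A, a ligand of the primitive streak, had 2.87 and 3.50 CPM in the 2 ESC libraries, 621 and 674 at 24 h and 1.26 and 1.02 at 120 h (log2 fold change -1.35 ± 0.32, adjusted p = 0.000438), and FGF4 fell from 106 and 105 CPM at 24 h to 1 read over both 120 h libraries. Primed H9 ESCs had 0 and 0.0477 CPM of WNT8A, below the 120 h level. LRP2, an endocytic receptor of neuroepithelium, crossed upwards, with 75.8 and 82.8 CPM in the 2 ESC libraries, 3.75 and 4.34 at 24 h and 171 and 169 at 120 h (log2 fold change 1.11 ± 0.12, adjusted p = 2.69e-09), as did MEGF10, with 85.2 and 79.0 CPM in the 2 ESC libraries, 4.61 and 4.14 at 24 h and 237 and 247 at 120 h.

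In 266 genes the return was not resolved, and 235 peaks and 15 dips lay in genes without enough counts in ESCs or at 120 h. FGF3 had no read in ESCs or at 120 h and 30.4 and 28.4 CPM at 24 h, at least 48.9-fold higher than the floor in ESCs, and a difference between ESCs and 120 h was not detectable at this depth. CCN2, a target of YAP, had 121 and 119 CPM in the 2 ESC libraries, 4.90 and 5.65 at 24 h and 66.1 and 61.7 at 120 h (net -0.91 ± 0.11), short of a 2-fold net fall under TMM and past it under DESeq2's size factors (-1.01). PROM1 had 142 and 141 CPM in the 2 ESC libraries, 16.8 and 18.2 at 24 h and 67.8 and 80.0 at 120 h (net -0.94), and SALL1, a kidney and limb factor, had 83.2 and 80.3 CPM in the 2 ESC libraries, 424 and 447 at 24 h and 146 and 149 at 120 h (net 0.85).

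Of 168 peaks 163 were protein-coding, and of 204 dips 182, against 13589 of all 15662. Median promoter GC was 67.2% for returned peaks and 62.7% for returned dips, beside 65.0% for the 10985 protein-coding genes with a promoter, and TCF/LEF sites stood in 11.7% and 16.9% of the returned promoters. Only 78.5% and 74.7% of the protein-coding returned genes had a promoter in the table, so this comparison is void. The rule did not use the level in primed H9 ESCs, though their libraries entered the fit. On the log2 scale (0.5 CPM added) that level was nearer to RUES2-GLR ESCs than to 24 h RA-gastruloids in 123 of 168 peaks. The same held in 111 of 204 dips. The share over all genes was not measured, so these counts have no background and are not read as a result. A narrower margin of 1.5-fold left 64 peaks and 70 dips.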

How the data were processed

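RNA from 2 biological replicates of each stage was sequenced as poly(A)-selected libraries. The authors trimmed reads with Trimmomatic (0.39), aligned them to GRCh38 with STAR and deposited raw counts per gene from featureCounts, whose default setting ignores strand; the annotation release is not given in the sources used here. Only the human count table was used, and none of its columns was left unmapped. Gene symbols and biotypes came from GENCODE annotation and promoters from RefSeq, both of GRCh38. Counts were fitted with edgeR (4.0.16, R 4.3.3; TMM, filterByExpr, quasi-likelihood F-test) with 1 coefficient for each of 5 groups of 10 human libraries. Standard errors and 95% intervals came from the negative binomial information of that fit.

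Members, gene lists, motifs and alternatives were chosen with earlier results of these data known. Named genes followed a rule: the 12 largest called rises and falls with at least 10 CPM and more than 3 counts in the lower group; the 8 most abundant genes gained and lost; the 10 largest returns and the 6 largest partly reversed or unresolved excursions in each direction; and up to 3 genes a direction and 1 not called in each list. Others are named as chosen after their values were seen, or for a motif, and some genes the rule named are not reported here. In simulated counts over 18300 genes from ESC to 120 h, 49 of 50 genes changed 4-fold were called. Of those changed 2-fold, the size of the threshold itself, 19 of 50 were called. Of genes with a 4-fold excursion, 43 of 50 were counted as back. The simulation changed few genes, gave all groups the same dispersion trend and gave excursion genes no net change. Its rates need not hold for these data, in which 40.6% of genes were called. Intervals and floors of 3 counts cover counting error only. Same-numbered replicates of different stages did not deviate together (correlations of their deviations from -0.14 to 0.02), so the replicate numbers were not used as pairs.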

Additional observations from a re-analysis of the deposited data

How the results depend on the processing

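The counts 3024 higher, 3338 lower, 168 peaks and 204 dips back, 2315 net calls reached by 24 h, 1594 made after 24 h and 845 made in both steps moved by over 1.5 times under few settings. Requiring 10 counts in each ESC and 120 h library gave 1665 higher, 2055 lower, 1486 reached by 24 h, 777 after 24 h and 272 in both steps, from fewer genes tested. The adjusted p alone gave 6054 higher, 1242 peaks and 772 dips back, 2511 after 24 h and 2521 in both steps. A test against 2-fold (glmTreat) gave 1881 higher, 98 peaks and 97 dips back and 411 in both steps. Thinning all human libraries to the smallest left 109 peaks, and a 1.5-fold margin 64 peaks and 70 dips. Leaving out 1 library in turn gave 2535 to 3134 higher, 3275 to 3528 lower, 99 to 171 peaks back, 140 to 226 dips back, 2164 to 2343 reached by 24 h, 1475 to 1623 after 24 h and 716 to 831 in both steps. The lowest count of peaks, 99, came without ESC replicate 1, which leaves the shallow replicate 2 alone. DESeq2 gave 2412 higher and 3447 lower. With the replicate block, fitted on the 6 RUES2-GLR-derived libraries, 2682 were higher and 3536 lower, against 2702 and 3551 in those libraries without it. Crossing the numbers, an alternative chosen after seeing the data, gave 2673 and 3524. Leaving out the mitochondrial genome, also chosen then, gave 2703 and 3537.

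The choice of ESC line mattered most for single genes. With primed H9 ESCs as the reference 3235 genes were higher and 3009 lower, 3944 net calls were shared and 120 had the opposite direction, and 120 of the 372 returned genes were shared. Of the named genes 22 changed sign there, with a net call in the main fit, with this reference or in both. None did so under any other setting. This is not a count of reversed calls. Some of them, such as PFKFB4 and KIT, had no net call against RUES2-GLR ESCs. Others, such as SOX21 and ETS1, were within 2-fold of H9 ESCs. Net log2 fold changes became 1.25 for PFKFB4, 1.43 for KIT, 2.11 for PCDHB10, 1.10 for ABCA1, 1.09 for TRPC4, 0.22 for SOX21, 0.56 for VWF, 0.67 for SHISA2, 0.58 for PKDCC, 1.69 for MGAT4C and 1.26 for XK. They became 4.78 for WNT8A, 2.26 for LFNG, -0.0398 for ETS1, -0.26 for ACTC1, 1.42 for IGFBP3, 2.04 for CYP26C1, 2.55 for CYP26A1, -0.15 for PFKM, 0.69 for MT-CO2, 1.33 for MT-CO1 and 0.48 for MT-ATP8. The cause was not tested. The list counts were recomputed under only some of the settings, and how they hold under the others was not tested. They moved by over 1.5 times 17 times, each with this reference, and stayed within that in 167 other comparisons. A gene near 1 CPM rests on few reads in the shallow ESC replicate 2, which limits what could be called among low genes.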

Other observations

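Noncoding and protein-coding transcripts differed in direction. Of 1517 long noncoding RNAs measured, 31.0% were higher and 19.2% lower at 120 h, against 18.2% and 21.8% of 13589 protein-coding genes. By chromosome, chromosome 19 had the lowest nuclear share of higher calls, 11.9% of 1073 genes, with 26.4% lower, and chromosome 13 the highest, 25.7% of 303. The share of genes called lower was 17.6% in the quintile lowest in transcript GC and 29.1% in the highest, in libraries whose 120 h replicates themselves differed with GC. The part of this in the calls was not tested.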
